A study of Mus musculus with 4 samples.

Results

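The genes described here are 8 genes of cholesterol synthesis and its control, Hmgcs1, Idi1, Fdps, Fdft1, Sqle, Lss, Cyp51 and Insig1, taken by symbol from a table of read counts for 24421 genes. All 8 were found, and all 8 passed the minimum of 10 reads in at least 1 library that left 14393 genes for testing. The counts came from RNA sequencing of whole ICR mouse embryos in 4 libraries, namely 1 wild-type library at E7.5 (E7.5 WT), 1 wild-type library at E8.5 (E8.5 WT) and 2 libraries of Ddx6 -/- embryos at E8.5 (KO1 and KO2). DDX6, an RNA helicase, represses the translation of mRNAs and promotes their breakdown. The KO embryos came from intercrosses of heterozygous mice in which a floxed Ddx6 exon had been removed with a CAG-Cre deletion line, so the deletion was not limited to a tissue. By the study's account the KO embryos were delayed, and the KO libraries were pools. KO1 mixed embryos from before and after head-fold formation, and KO2 held only embryos from before it. The list was proposed as genes of cholesterol synthesis and uptake, but 7 of its members are enzymes of synthesis and the other, Insig1, is a regulator. The uptake receptors are therefore described from a separate list.

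Cholesterol is built from acetyl-CoA through mevalonate, farnesyl diphosphate, squalene and lanosterol. The genes of the whole route are known targets of the transcription factor SREBP-2. When sterol is scarce, the escort protein SCAP carries SREBP-2 from the endoplasmic reticulum to the Golgi, where proteases release its active part, and when sterol is plentiful INSIG proteins hold the complex back. In the embryo, cholesterol is a membrane component and is also attached to Hedgehog ligands, and before a placental circulation forms the visceral endoderm delivers lipoproteins to the embryo.

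The promoters of these genes are where SREBP-2 is known to act, together with NF-Y and Sp1. RefSeq windows of 300 bases, from 250 before to 50 after the annotated start (GRCm38.p6), were matched for 5 of the 8 members, and none was matched for Fdps, Fdft1 or Sqle. The search, on both strands, was for TCACNCCAC (the core of a sterol regulatory element), CCAAT (the NF-Y box, which reads ATTGG on the other strand) and GGGCGG (the Sp1 box, CCGCCC on the other strand). The 4 stretches of 150 bases that follow end before the first annotated base of each gene, are written 5′ to 3′ on the gene's strand, and carry every match to these motifs in capitals. Hmgcs1 is shown because its transcript differed most between KO and E8.5 WT. Among the 5 windows, it was also the only one with a match to TCACNCCAC. Lss, Cyp51 and Insig1 are shown as windows without such a match.
Hmgcs1 (chr13:119690201-119690350, plus strand): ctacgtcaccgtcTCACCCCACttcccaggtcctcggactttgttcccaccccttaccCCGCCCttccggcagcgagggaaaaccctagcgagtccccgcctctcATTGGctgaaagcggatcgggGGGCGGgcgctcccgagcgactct
Lss (chr10:76531438-76531587, plus strand): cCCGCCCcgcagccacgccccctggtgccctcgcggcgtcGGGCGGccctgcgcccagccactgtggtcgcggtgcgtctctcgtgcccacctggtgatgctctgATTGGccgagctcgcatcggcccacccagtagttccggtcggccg
Cyp51 (chr5:4104747-4104896, minus strand): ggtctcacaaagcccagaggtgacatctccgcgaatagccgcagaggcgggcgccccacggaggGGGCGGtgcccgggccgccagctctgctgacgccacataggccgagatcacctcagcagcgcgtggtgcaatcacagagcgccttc
Insig1 (chr5:28071213-28071362, plus strand): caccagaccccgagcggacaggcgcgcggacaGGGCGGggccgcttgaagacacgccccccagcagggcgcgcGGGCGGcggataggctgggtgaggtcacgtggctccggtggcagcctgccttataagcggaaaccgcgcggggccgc
The sterol element core began 137 bases before the Hmgcs1 start, with 2 Sp1 boxes and an NF-Y box between it and the start. Among the 32851 windows in the table, 1.24% held this core. It was found in 1 of the 5 member windows and for 0 of the 12 other enzymes of the pathway that had a window. These enzymes were counted by gene, with a match in any of a gene's windows, unlike the share of all windows. The short boxes were common, since CCAAT was in 37.4% and GGGCGG in 35.7% of all windows. Each was in 5 of the 5 member windows and was found for 11 of the 12 other enzymes. The printed stretches hold only part of each window, and those of Cyp51 and Insig1 run from 199 to 50 bases before the RefSeq start. The NF-Y boxes of Cyp51 and Insig1, which begin 29 and 216 bases before that start, lie outside them. A match to these letters describes the sequence and is not a measured binding site. A window without a match was searched for this core only, and may hold a sterol element of other letters.

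Total read counts were between 8198402 (KO1) and 12562640 (E8.5 WT). Ddx6 itself had 2943 reads at E7.5 and 5715 at E8.5 in WT embryos, with 706 in KO1 and 929 in KO2, and fell by 2.47 (KO1) and 2.61 (KO2) on the log2 scale against E8.5 WT. Libraries also differed in the tissues they held. Summed over 8 visceral endoderm markers, the normalized level was 7137 and 7807 CPM (read counts scaled to a common library total) in the E7.5 and E8.5 WT libraries, and 4794 and 4455 CPM in KO1 and KO2. Relative to E8.5 WT, 7 of these 8 markers were lower in both KO libraries, as were 5 of 5 primitive erythroid markers and 5 of 5 cardiac markers. KO2 stood apart by 5988 reads over 6 trophoblast giant cell markers, against 41 and 7 in the earlier and later WT library and 9 in KO1, although Prl3b1 had 0 reads and Ctsq at most 1 read in every library. KO2 also had 17340 reads of Xist, with 0 reads of 4 Y-linked genes. In E7.5 WT, E8.5 WT and KO1, Xist had 46, 17 and 15 reads, and each of the 4 Y-linked genes had between 162 and 744. By these genes KO2 differed from the other libraries in the sex of its embryos. The part of sex in the values that follow was not tested. Of 5 decidua markers, only Prl8a2 was above E8.5 WT by more than 1 on the log2 scale in both KO libraries, with 1433 reads in KO2, 64 in KO1, 26 at E8.5 and 1318 at E7.5 in WT, whereas Dcn (20 reads in KO2 and 23 in E8.5 WT) and Cryab (108 and 102) were near their WT numbers. E7.5 WT differed in extraembryonic ectoderm, since 4 of 5 of its markers were lower by more than 1 in E8.5 WT. Elf5 had 795 reads in E7.5 WT and between 3 and 10 in the other libraries, and Esrrb 532 and between 22 and 37, while Eomes had 1333 reads in E7.5 WT and 3128 in KO2 but 64 in E8.5 WT and 77 in KO1. The part of these tissues in the values that follow was not tested, and in bulk RNA fewer cells of a type cannot be told apart from less RNA per cell.

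The first question was whether transcripts of the 8 genes differed between KO embryos and E8.5 WT embryos of the same age. Most were somewhat higher in both KO libraries, and Hmgcs1 most of all, but none reached a log2 difference of 1, which is the study's own limit for a changed gene. Specifically, 0 of the 8 members passed that limit in either direction in either KO library. Across all genes tested, 3.44% were above E8.5 WT by more than 1 in both KO libraries and 1.79% were below it by more than 1 in both. At any size, 6 of the 8 members (Hmgcs1, Fdps, Sqle, Lss, Cyp51 and Insig1) were above E8.5 WT in both KO libraries, where 36.3% of all genes were. The median log2 difference over the members was 0.31 in KO1 and 0.20 in KO2, and over all genes it was -0.01 and 0.00. Read counts of the 8 members together made up 0.0384% and 0.0506% of the E7.5 and E8.5 WT libraries, and 0.0764% and 0.0674% of KO1 and KO2 (exact 95% intervals 0.0373 to 0.0396, 0.0494 to 0.0519, 0.0746 to 0.0784 and 0.0659 to 0.0689%). The share was thus higher in each KO library than in either WT library, with Hmgcs1 alone giving 39.1% of the members' reads in KO1 and 36.0% in KO2, against 30.4% in E8.5 WT. All intervals given here cover counting error only.

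**Figure D1:**
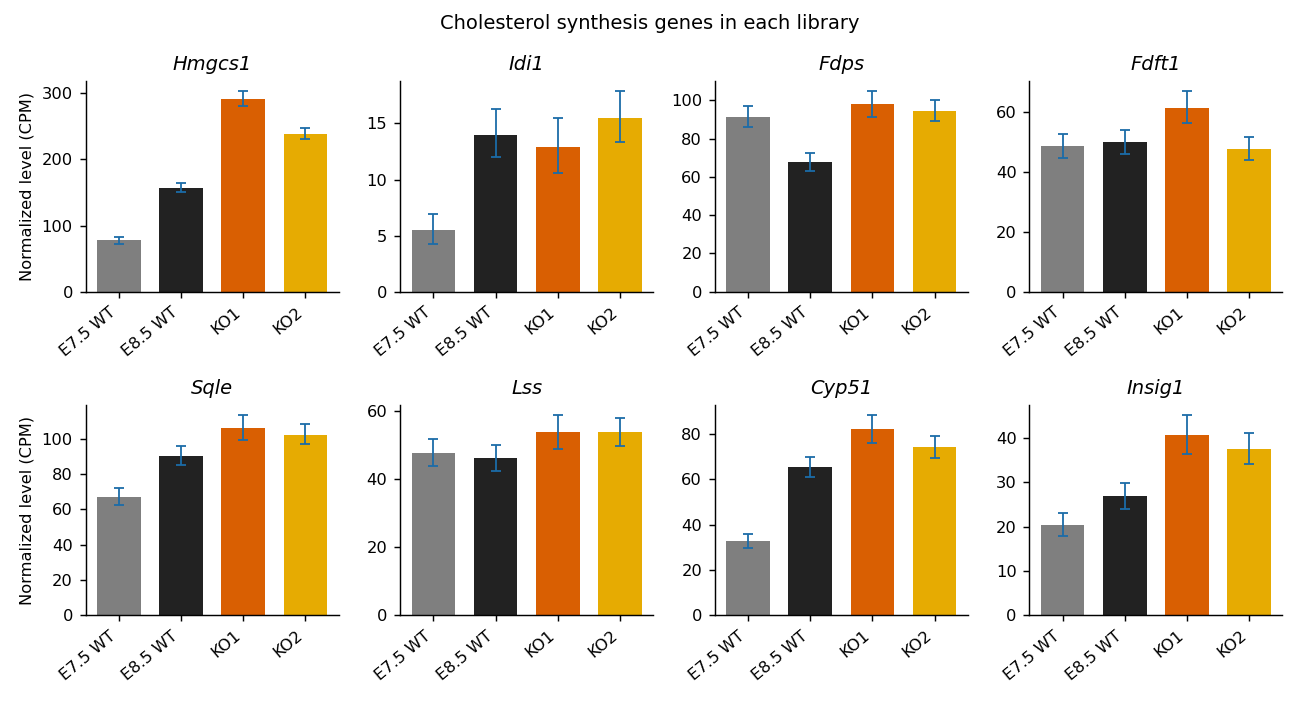
Normalized level (CPM, vertical axis, each panel on its own scale from 0) of the 8 genes in the 4 libraries, 1 bar per library, with exact 95% Poisson intervals for counting error. Hmgcs1 stood at 292 and 239 CPM in KO1 and KO2 and at 157 CPM in E8.5 WT, while Fdft1 and Lss were at similar levels in the WT libraries and Idi1 at similar levels in the 3 E8.5 libraries.

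Hmgcs1 (chr13:119690379-119708260, plus strand, GRCm38) encodes the cytosolic HMG-CoA synthase, which acts early in the mevalonate part of the route. It had 925 reads at E7.5 and 1930 at E8.5 in WT embryos, with 2448 in KO1 and 2914 in KO2, or 77.8, 157, 292 and 239 CPM. Both KO libraries were above both WT libraries, although KO1 was sequenced least. The level was 1.86-fold that of E8.5 WT in KO1 (log2 0.89, interval 0.81 to 0.98) and 1.52-fold in KO2 (log2 0.61, interval 0.52 to 0.69), with a mean log2 difference of 0.75 ± 0.20 (SD, n = 2). The KO libraries themselves differed by 0.29 (interval -0.36 to -0.21 for KO2 minus KO1), which is less than either difference from E8.5 WT. This gene ranked above 89.7% of all tested genes in its mean difference.

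Insig1 (chr5:28071363-28078662, plus strand) is the member that holds SREBP-2 back, and is itself a known SREBP target. It had 242 reads at E7.5 and 330 at E8.5 in WT embryos, with 342 in KO1 and 458 in KO2, or 20.3, 26.9, 40.7 and 37.6 CPM. The KO libraries were again the highest 2 of the 4, at 1.51-fold and 1.40-fold the E8.5 WT level (log2 0.60 and 0.48, mean 0.54 ± 0.08, SD, n = 2). The counting intervals of these differences were 0.38 to 0.82 in KO1 and 0.28 to 0.69 in KO2. KO2 minus KO1 was -0.12 with an interval of -0.32 to 0.09, so the KO libraries were not distinguishable at this depth.

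Fdps (chr3:89093588-89101959, minus strand) encodes the enzyme that makes farnesyl diphosphate, from which sterols, dolichols and the lipid anchors of small GTPases all derive. It had 1087 reads at E7.5 and 832 at E8.5 in WT embryos, with 822 in KO1 and 1149 in KO2, or 91.4, 67.7, 97.9 and 94.3 CPM. E8.5 WT was the lowest library, and the KO libraries were near E7.5 WT. The KO libraries lay 0.53 and 0.48 above E8.5 WT on the log2 scale (mean 0.50 ± 0.04, SD, n = 2), whereas that from E7.5 WT was 0.10 and 0.04, with intervals that included 0 (-0.03 to 0.23 and -0.08 to 0.17).

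Cyp51 (chr5:4081145-4104746, minus strand) removes a methyl group from lanosterol, the first step after ring closure. Its reads were 388 at E7.5 and 801 at E8.5 in WT embryos, with 688 in KO1 and 902 in KO2, or 32.6, 65.2, 81.9 and 74.0 CPM. The step between the WT stages was larger than the step from E8.5 WT to the KO libraries, which was 0.33 and 0.18 on the log2 scale (mean 0.26 ± 0.10, SD, n = 2). Sqle (chr15:59315077-59331192, plus strand), the epoxidase that commits squalene to sterol, had 798, 1109, 892 and 1246 reads in the same order, or 67.1, 90.2, 106 and 102 CPM. It lay 0.23 and 0.18 above E8.5 WT (mean 0.21 ± 0.04, SD, n = 2). Lss (chr10:76531588-76557138, plus strand), which closes the rings to give lanosterol, had 567, 569, 452 and 656 reads, or 47.7, 46.3, 53.8 and 53.8 CPM. The KO libraries had the same Lss level, 0.22 above E8.5 WT on the log2 scale in each. For all 3 genes the counting intervals of both KO differences lay above 0, but the lower bounds came as close as 0.04 for Lss in KO1.

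Fdft1 and Idi1 did not share this pattern. Fdft1 (chr14:63145150-63179578, minus strand) encodes squalene synthase, where sterol synthesis leaves the other isoprenoid branches. It had 577 reads at E7.5 and 613 at E8.5 in WT embryos, with 515 in KO1 and 580 in KO2, or 48.5, 49.9, 61.3 and 47.6 CPM. KO1 was the high library and the other 3 were alike, with log2 differences from E8.5 WT of 0.30 (interval 0.13 to 0.47) for KO1 and -0.07 (-0.23 to 0.10) for KO2. Idi1 (chr13:8885501-8892451, plus strand), which interconverts the 5-carbon building blocks of isoprenoids, had the fewest reads of the 8, with 65, 172, 108 and 189, or 5.46, 14.0, 12.9 and 15.5 CPM. E7.5 WT was the low library, and the 3 E8.5 libraries did not differ beyond counting error. The differences from E8.5 WT were -0.12 and 0.15, both with intervals that included 0 (-0.48 to 0.23 and -0.16 to 0.45).

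**Figure D2:**
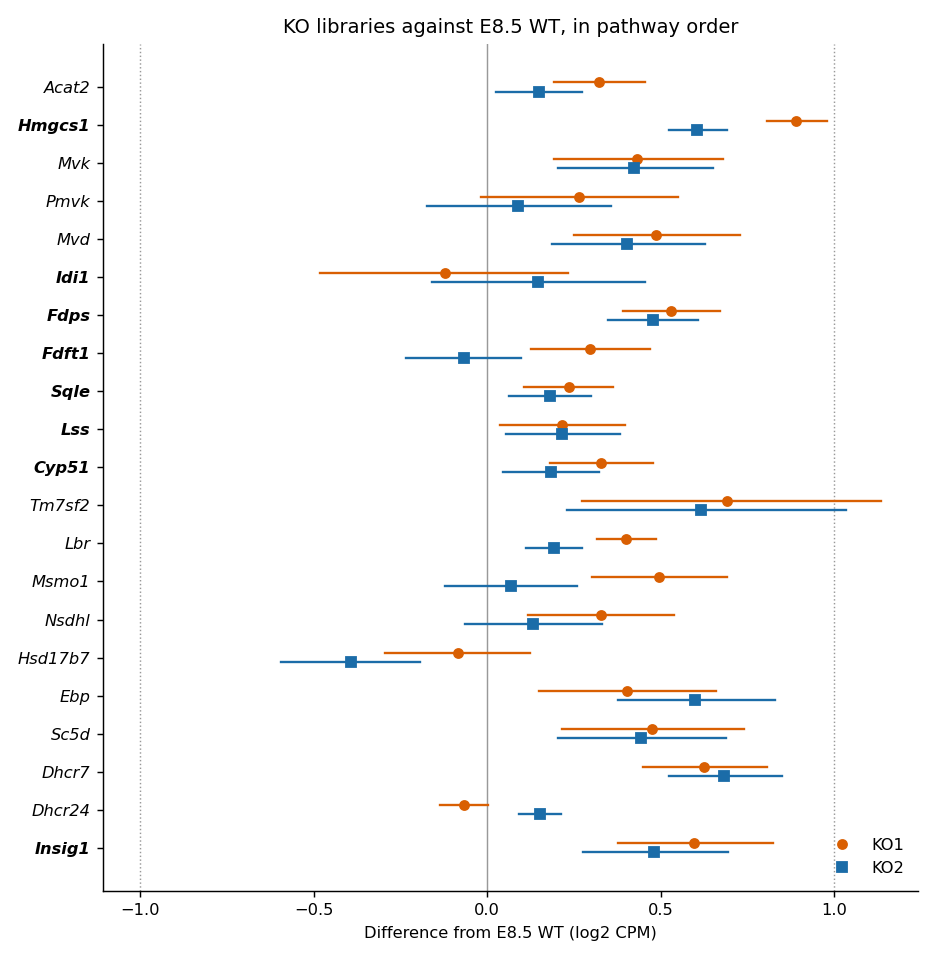
Log2 difference in CPM from E8.5 WT (horizontal axis) for the 8 members (bold) and other enzymes of the pathway in the order of the reactions, with Insig1 last. Circles are KO1, squares are KO2, lines are exact 95% intervals for counting error, and the dotted lines mark a difference of 1. Hmgcs1 had the highest value of any member in each library, and no point passed the dotted lines.

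The edgeR quasi-likelihood test called no gene changed. Tested against E8.5 WT, with the spread taken from the KO libraries alone, 0 of the 8 members and 0% of all genes had an adjusted p under 0.05, and the same was found in the test of the KO libraries against both WT libraries as 1 group (0% of all genes). At an unadjusted p under 0.05, the first test had 3 members and 1039 genes in all. In it Hmgcs1 had an unadjusted p of 0.0129, Fdps of 0.0196 and Insig1 of 0.0464, and each had the same adjusted p of 0.669 (edgeR, Benjamini-Hochberg). Sqle, Lss and Cyp51 had adjusted p-values between 0.672 and 0.692, while those of Fdft1 and Idi1 were 0.865 and 0.985. The second test had 2 members at an unadjusted p under 0.05, out of 565 genes, namely Hmgcs1 (0.0239) and Insig1 (0.0304), both with an adjusted p of 0.900 by edgeR. DESeq2 called 34 and 32 genes in these comparisons and no member among them. Its smallest adjusted p for a member was that of Hmgcs1, 0.172 against E8.5 WT and 0.364 against both WT libraries. Ddx6 itself had an adjusted p of 0.193 by edgeR in the first test, and of 2.33e-28 and 4.43e-06 by DESeq2 in the first and second. With 1 library per WT stage, the spread among WT embryos was not measured, and a p above the limit does not show that levels were equal.

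Since the KO embryos were delayed, they were next compared with E7.5 WT, together with the change between the WT stages. From E7.5 to E8.5 in WT, the 8 genes moved unequally. Hmgcs1 was higher by 1.01 on the log2 scale (interval 0.90 to 1.13), Idi1 by 1.33 (0.94 to 1.79) and Cyp51 by 0.99 (0.82 to 1.18). Smaller differences were those of Sqle, 0.43 (0.30 to 0.56), and Insig1, 0.40 (0.16 to 0.65). Fdft1 (0.04) and Lss (-0.04) had intervals that included 0, and Fdps was lower by 0.43 (-0.57 to -0.30). Thus 2 of the 8 members, Hmgcs1 and Idi1, were above the limit of 1, and 0 were below it, where 12.2% of all genes were above and 7.82% below. These stage values compare 1 library with 1 library and have no replicate check, and the part in them of the extraembryonic ectoderm transcripts of E7.5 WT was not tested. The median over the members was 0.41, against -0.02 over all genes.

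Against E7.5 WT, 3 of the 8 members were higher by more than 1 in both KO libraries, namely Hmgcs1 (1.904 in KO1 and 1.62 in KO2), Idi1 (1.21 and 1.48) and Cyp51 (1.32 and 1.18). Over all genes 6.91% were above E7.5 WT in this way and 2.7% below it, and 0 members were below. Insig1 came just short, at 0.99 and 0.88. The values were 0.66 and 0.61 for Sqle, 0.34 and -0.03 for Fdft1, 0.17 and 0.17 for Lss, and 0.10 and 0.04 for Fdps. In CPM, the KO levels of Hmgcs1 were 3.74-fold and 3.07-fold those of E7.5 WT, and those of Cyp51 2.50-fold and 2.26-fold. The E8.5 and E7.5 comparisons share the same KO libraries, so their values are not independent. Set against both WT libraries at once, 6 of the 8 members were above each WT library in both KO libraries at any size, the same 6 as against E8.5 WT alone, where 18.4% of all genes were.

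**Figure D3:**
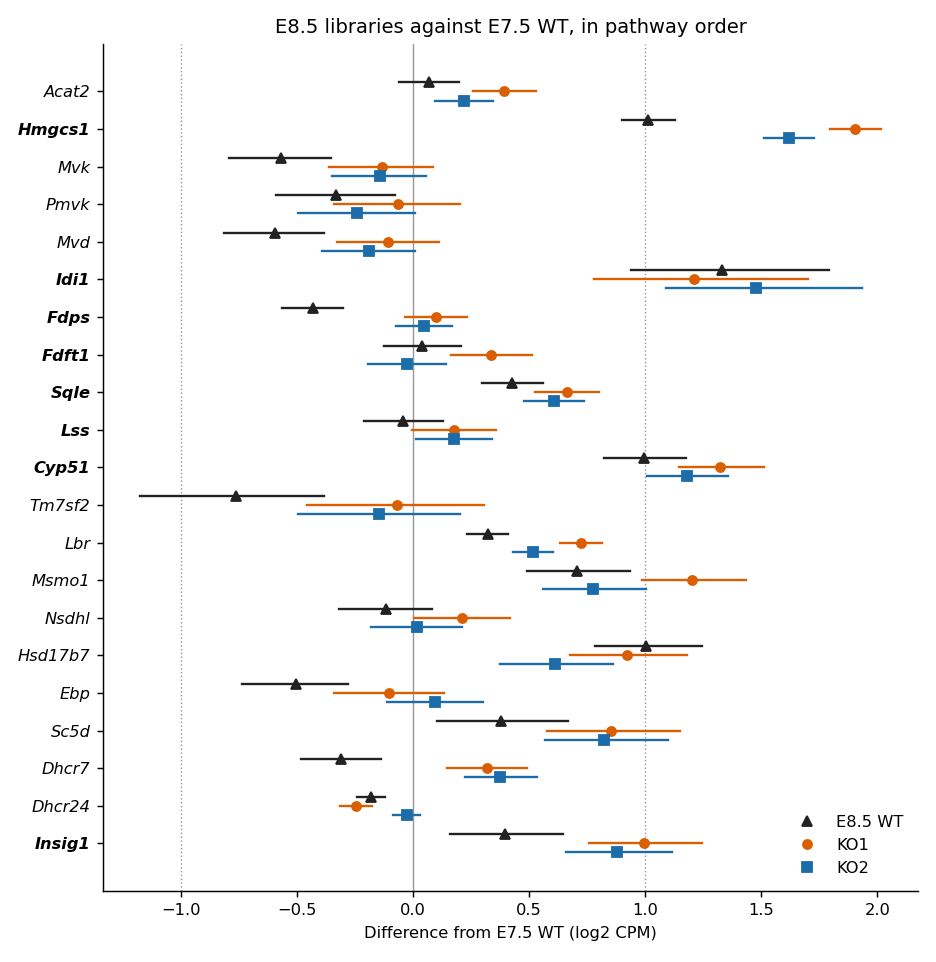
Log2 difference in CPM from E7.5 WT (horizontal axis) for the same genes in the same order, with triangles for E8.5 WT, circles for KO1 and squares for KO2. Lines are exact 95% intervals for counting error and the dotted lines mark a difference of 1. For Hmgcs1 both KO points lie beyond the E8.5 WT point, for Idi1 the 3 intervals overlap, and for Fdps the E8.5 WT point lies at -0.43 and the KO points near 0.

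Between the KO libraries, KO2 minus KO1 ranged from -0.36 for Fdft1 to 0.27 for Idi1. For both genes this was larger in size than the mean difference from E8.5 WT (0.11 and 0.01). Of the 8 members, 0 differed by more than 1 between the KO libraries, where 10.9% of all genes did. With only 8 genes, 0 is near that share. The counting interval lay below 0 for Hmgcs1, Fdft1 and Cyp51, and included 0 for the other 5. Leaving out KO2, the library with the trophoblast transcripts, left a member median of 0.31 above E8.5 WT with 7 of 8 members positive. Leaving out KO1 left 0.20 with 7 of 8. Positive here means above E8.5 WT in 1 library, a looser rule than that met by 6 of 8 in both. The share of all genes under this looser rule was not computed, and their medians were -0.0083 in KO1 and -0.0013 in KO2.

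Levels of different members can be compared only per length of transcript. Dividing CPM by the length of each gene's annotated exons in kilobases, Fdps was the highest of the 8 in E7.5 WT, at 62.9 CPM per kb, followed by Sqle at 24.3 and Hmgcs1 at 22.3, which did not differ beyond counting error. By E8.5 in WT, Fdps (46.6) and Hmgcs1 (45.1) did not differ beyond counting error. In KO1 Hmgcs1 came first, at 83.7 against 67.4 for Fdps, and in KO2 they were again not distinguishable, at 68.7 and 64.9. Idi1 was last in every library, between 1.81 and 5.12 CPM per kb. In the 3 E8.5 libraries, Sqle came after these and Cyp51 next, with each step larger than counting error. The lower ranks were less clear, since Cyp51 and Insig1 did not differ in E7.5 WT, Insig1 and Lss in E8.5 WT, nor Fdft1 and Insig1 in either KO library, nor Fdft1 and Lss in KO2. The place of Fdps depended on the length used, which the intervals do not cover. Its coding transcript gives 1453 bases, while its longest annotated transcript, which retains an intron, has 2953. With the longest transcript of each gene as the length, a choice made after the data were seen, Fdps was at 30.9 CPM per kb in E7.5 WT, still the highest there, and at 22.9, 33.1 and 31.9 in E8.5 WT, KO1 and KO2, below Hmgcs1 at 45.3, 84.2 and 69.0. Sqle, Cyp51 and Idi1 kept their places in the 3 E8.5 libraries with these lengths, and Lss came next to last in every library. Some of these levels could be incomplete where reads matched a near-identical copy and were not counted. Copies of at least 95% identity outside the gene covered 33.7% of the longest Fdft1 transcript (Gm6781), 22.6% of Idi1 (2 pseudogenes), 9.69% of Fdps (5 pseudogenes) and 7.01% of Insig1 (Gm37784), and none was found for Hmgcs1, Sqle, Lss or Cyp51. Fdps also overlaps 2 other annotated genes on its own strand.

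The other enzymes of the route were compared in the same way. Of 14 such enzymes, 0 passed the limit of 1 against E8.5 WT in both KO libraries, where 3.44% of all genes were higher and 1.79% lower. At any size, 11 of the 14 were above E8.5 WT in both, where 36.3% of all genes were. The median of the 14 enzymes was 0.40 in KO1 and 0.17 in KO2. Among the 5 other enzymes of the mevalonate part, the largest mean differences were those of the mevalonate diphosphate decarboxylase Mvd (0.49 and 0.40) and the mevalonate kinase Mvk (0.43 and 0.43). Both were lower in E8.5 WT than in E7.5 WT, by 0.59 and 0.57, as Fdps was.

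Of the 9 enzymes that follow Cyp51, the largest mean differences were those of the reductases Dhcr7 (0.63 in KO1 and 0.68 in KO2) and Tm7sf2 (0.69 and 0.62). Dhcr7, whose enzyme makes cholesterol from its last precursor, had 600 and 500 reads in the earlier and later WT library with 528 and 798 in the KO libraries, and its edgeR p against E8.5 WT was 0.0117, with an adjusted p of 0.669. Tm7sf2 had few reads (146, 88, 98 and 135) and overlaps Vps51 on the same strand. Hsd17b7 was the only enzyme of the route below E8.5 WT in both KO libraries, at -0.08 and -0.39, and was chosen for mention after its values were seen.

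Genes that control SREBP-2 differed less. In this list of 9, 0 passed the limit, and 3 were above and 3 below E8.5 WT in both KO libraries at any size. Over all genes, 36.3% were above it in both, and 5413 of 14393 were below it in both. The median of the list was -0.01 in KO1 and 0.02 in KO2. Srebf2, which encodes SREBP-2 itself, had 1855 and 2176 reads in WT and 1752 and 2358 in the KO libraries, and lay 0.24 and 0.13 above E8.5 WT. Srebf1, which encodes the SREBP-1 forms known for fatty acid synthesis, lay at -0.10 in both KO libraries. The escort Scap stood at 0.41 and 0.23, and the ubiquitin ligase gene Rnf145 at -0.65 and -0.34. Of the INSIG genes, Insig1 was higher by 0.60 and 0.48 as described, and Insig2, given here for comparison with its paralog, stood at -0.01 and 0.10.

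The genes of sterol uptake gave the only call in the pathway lists, 1 gene of the 57 tested, beside 1.79% of all genes that were lower in this way. Vldlr, a receptor for lipoproteins and for reelin, had 210 reads at E7.5 and 521 at E8.5 in WT embryos, with 112 in KO1 and 192 in KO2. It fell by 1.66 in KO1 and by 1.42 in KO2 against E8.5 WT (mean -1.54 ± 0.17, SD, n = 2). From E7.5 WT it differed less, by -0.40 in KO1 (interval -0.75 to -0.07) and by -0.16 in KO2 (-0.45 to 0.13). The interval thus lay below 0 in KO1 and included 0 in KO2. The edgeR p against E8.5 WT was 0.00253, with an adjusted p of 0.669. In the list of 11 uptake and lysosomal genes, 0 passed the limit upward and 1 (Vldlr) downward. At any size, 7 of the 11 were above E8.5 WT in both KO libraries, where 36.3% of all genes were. The medians of the list were 0.39 and 0.47. Against E7.5 WT, 3 of the 11 were above by more than 1 in both KO libraries, where 6.91% of all genes were. Among them was the sterol carrier Stard4 (1.20 and 1.21), chosen for mention after its values were seen.

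**Figure D4:**
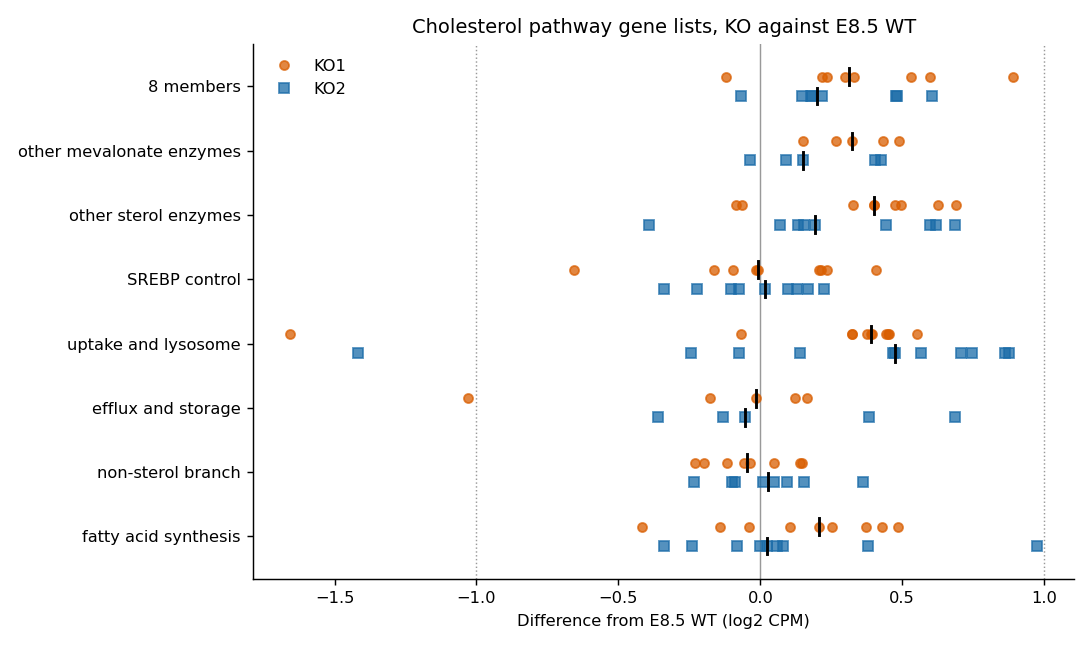
Log2 difference in CPM from E8.5 WT (horizontal axis) for every gene of the members' list and of 7 other lists, with circles for KO1, squares for KO2 and a black bar at each list's median. The dotted lines mark a difference of 1. Vldlr lies past -1 in both libraries, and the medians of the 3 synthesis lists lie between 0.15 and 0.40.

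The remaining lists held no called gene. Of 8 genes that lead farnesyl diphosphate away from sterols, 0 passed the limit, and the median was -0.05 in KO1 and 0.03 in KO2. The prenyltransferase subunit gene Pggt1b (-0.23 and -0.10) and Pdss2, of ubiquinone synthesis (-0.03 and 0.36), had the largest mean differences. In the list of 5 genes of sterol efflux and storage, 0 passed in both libraries, and the medians were -0.02 and -0.05. The sterol exporter gene Abcg1 had 75, 77, 25 and 124 reads and differed in sign between KO1 (-1.03) and KO2 (0.68). The LXR gene Nr1h2, which responds to oxysterols, stood at 0.12 and 0.38. Of 9 genes of fatty acid synthesis, 0 passed, and the medians were 0.21 and 0.02, with Acss2 at 0.49 and 0.98 and Acaca at -0.42 and -0.34. Idi2, the paralog of Idi1, had at most 1 read in any library and was not tested. In all, 57 of 58 listed genes beside the members were tested, and 0 were higher and 1 lower by more than 1 in both KO libraries, where 3.44% of all genes were higher and 1.79% lower.

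The mean profile of the 8 members over the 4 libraries, each centred on its own mean log2 CPM, was closest to that of Sqle among the members (distance 0.143) and farthest from that of Hmgcs1 (0.808). Of 9845 other genes with a mean of at least 100 reads, the 5 nearest to this mean profile were Sox4 (distance 0.0206), Slc17a5 (0.0559), Mcur1 (0.0581), Tyro3 (0.0707) and Dock1 (0.0721). Sox4, a transcription factor of the SOX family, had 1280 and 1837 reads in the earlier and later WT library with 1645 and 2231 in the KO libraries, and stood 0.39 and 0.29 above E8.5 WT. With only 4 libraries such nearness is common, since 2361 of these genes were nearer to the mean profile than the median member was (0.534).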

How the data were processed

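RNA of whole embryos was sequenced as stranded mRNA libraries. The authors deposited raw read counts per gene. According to the methods and the submitters' processing notes, reads were trimmed with cutadapt 2.8, aligned to mm10 with HISAT2 2.1.0 and counted over exons with regard to strand with featureCounts 2.0.0, without reads that map to several places. Groups were taken from the sample labels. The KO libraries were pools of different embryos, and how many embryos a WT library held is not given in the sources used here, so p-values measure only the spread between these libraries.

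Counts were normalized by TMM in edgeR 4.0.16 (R 4.3.3) over the whole table. Genes with at least 10 reads in at least 1 library were kept, and differences are of log2 CPM computed after adding a prior count of 2. Calls required a difference above 1 or below -1 in both KO libraries, the limit of the authors' methods, without a p-value. Two-sided edgeR quasi-likelihood tests with Benjamini-Hochberg adjustment over all genes were added, with DESeq2 1.42.0 as the alternative. Intervals are exact 95% Clopper-Pearson intervals between libraries and exact Poisson intervals for levels. Both are computed from the read counts of single libraries, so they cover counting error only. No molecular identifiers were used, so reads copied from the same molecule were not told apart and the intervals may be too narrow.

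Gene positions and exon lengths came from GENCODE for GRCm38, the assembly of mm10, and may differ from the authors' annotation. Promoters were those of RefSeq. Near-identical copies were sought with BLAST 2.17.0 over at least 100 bases. Figures were drawn with matplotlib 3.10.9.

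The members and lists were chosen with earlier results of these data known. Named are all members, Ddx6, Srebf1 and Srebf2, in each pathway list the genes called or otherwise the 2 with the largest mean difference, and the 5 nearest profiles. Some genes under this rule are not reported here. As alternatives, the size factors of DESeq2, CPM without TMM (plain CPM), no count minimum, a minimum of 50, a prior count of 0.5, thresholds of 0.5 and 2, and each KO library left out were tried.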

Additional observations from a re-analysis of the deposited data

How the results depend on the processing

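No member was called under any alternative except a threshold of 0.5, at which 1 (Hmgcs1) passed in both KO libraries. At that threshold 3 other pathway genes were higher (Dhcr7 and Tm7sf2 among them) against 0 at a threshold of 1, and at a threshold of 2 the count of lower pathway genes went from 1 to 0. With 1 KO library left out at a time, higher pathway genes ranged from 0 to 1 (without KO1) and lower ones from 1 to 2 (Vldlr, and Abcg1 without KO2). The number of all genes called went from 0 to 34 (against E8.5 WT) and 32 (against both WT libraries) with DESeq2, and to 7 against E8.5 WT with no count minimum. It ranged from 1 (without KO2) to 51 (without KO1) in the test against both WT libraries, where the lone KO library is assumed to vary like the WT libraries. Against E8.5 WT that test has no residual degrees of freedom and was not run. The cause of these changes was not tested. Of 66 alternative values of the main results, 56 stayed within their limits and 10 moved, and 0 changed sign. Counts were judged by a fixed ratio, and the stage median by its counting error. For the KO medians the limit was the SD of the 2 KO medians, so staying within it with 1 KO library left out says little. The other count minima could not change the members' medians, since normalization used the whole table and all members passed them. Of 542 values for single genes, 517 stayed and 25 moved. Most moved with plain CPM, which put the mean of Lss at 0.28 and that of Fdps at 0.56. The limit for a gene's mean difference was the SD of the 2 KO libraries. Leaving out 1 KO library always shifts the mean by less than this SD. Those means therefore counted as staying whatever their size, and say nothing on stability. No called gene changed sign, but with a KO library left out the means of 17 of 66 genes did, including 2 members, Fdft1 (0.11, and -0.07 without KO1) and Idi1 (0.01, and -0.12 without KO2), and Abcg1 (-0.17, and 0.68 without KO1). Under the other settings 5 genes and 0 members did. The length chosen for Fdps moved its level per kb, as given with the levels. Medians of the members were 0.20 to 0.31 against E8.5 WT and 0.74 to 0.83 against E7.5 WT with a KO library left out. No paired analysis was possible because only the KO libraries carry replicate numbers. Depth limits Idi1 most, with 65 to 189 reads per library.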
